A study of Mus musculus with 6 samples.

Results

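Tyrosine is broken down in hepatocytes by a chain of enzymes that is almost confined to liver and kidney. Tyrosine aminotransferase (Tat) removes the amino group, 4-hydroxyphenylpyruvate dioxygenase (Hpd) forms homogentisate, homogentisate dioxygenase (Hgd) opens the ring, glutathione S-transferase zeta 1 (Gstz1) isomerises maleylacetoacetate, and fumarylacetoacetate hydrolase (Fah) splits the product into fumarate and acetoacetate. The hydroxylation of phenylalanine that feeds this chain uses tetrahydrobiopterin as its cofactor. GTP cyclohydrolase 1 (Gch1) starts the synthesis of that cofactor, and pterin-4-alpha-carbinolamine dehydratase (Pcbd1) and quinoid dihydropteridine reductase (Qdpr) recycle it. Inherited loss of Fah, Tat, Hpd or Hgd causes disorders of tyrosine metabolism, and Tat is a classic gene for the study of FOXA proteins and glucocorticoids in liver.

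These 8 genes were taken by symbol from the 34745 Ensembl genes listed for each library, and all 8 were found and had enough counts to be tested. The libraries were made from primary hepatocytes of male mice aged 12 weeks, 3 labelled FOXA2f/f+CCl4 (FOXA2f/f below) and 3 labelled FOXA2H-KO+CCl4 (FOXA2H-KO below). Mice of both groups carried floxed Foxa2 alleles, received an AAV8-TBG virus 2 weeks before CCl4, either AAV8-TBG-Control or AAV8-TBG-Cre, and were then given CCl4 (0.25 ml/kg) over 4 weeks with 2 injections a week, and killed on the third day after the last one. The thyroid-binding globulin promoter restricts Cre to hepatocytes, so that other liver cells keep Foxa2, and since every mouse received CCl4 the comparison does not show the effect of CCl4 itself.

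Total counts ran from 20983455 to 28327765 per library. Foxa2, the deleted gene, was at 16.3 ± 2.75 CPM (counts scaled for depth with TMM factors, SD, n = 3) in FOXA2f/f and 1.14 ± 0.438 CPM in FOXA2H-KO hepatocytes, so that 6.98% of its level was left. It was the 1 gene of 14417 tested (0.00694%) called by edgeR's quasi-likelihood test at an adjusted p under 0.05 and a 2-fold change (edgeR adjusted p = 0.0313). Counts of every pair of libraries within a group differed by more than sampling noise. All 8 hepatocyte marker genes examined were abundant in every library, and together they held between 121722 and 174354 CPM.

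None of the 8 genes of phenylalanine and tyrosine breakdown was called, in either direction, against a background of 0.00694% of all genes tested. Unadjusted p-values under 0.05 were reached by 0 of the 8, against 5.17% of all genes. That count was 2, Fah and Pcbd1, with upper quartile scaling (5.27% of all genes), with limma-voom and quality weights (14.9%) and without FOXA2f/f replicate 4 (16.6%). Each of the 8 had a fitted log2 fold change below 0, where 52.2% of all genes did, and their median was −0.22 beside a median of −0.01 over all genes. The 8 hepatocyte marker genes had a median of −0.12, with 7 below 0 and 1 above. For the 8 breakdown genes the median was −0.33 without FOXA2f/f replicate 4 and −0.11 without FOXA2f/f replicate 2. The 95% intervals of all 8 contained 0 and ended within a 2-fold change on both sides. Fah and Pcbd1 were lower in all 3 FOXA2H-KO than in any FOXA2f/f library, whereas the groups overlapped in the other 6 genes. In these bulk libraries fewer cells of a type and less RNA per cell cannot be told apart. Among all genes, 5.96% were lower in this way and 4.54% higher, 10.5% in either direction.

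**Figure D1:**
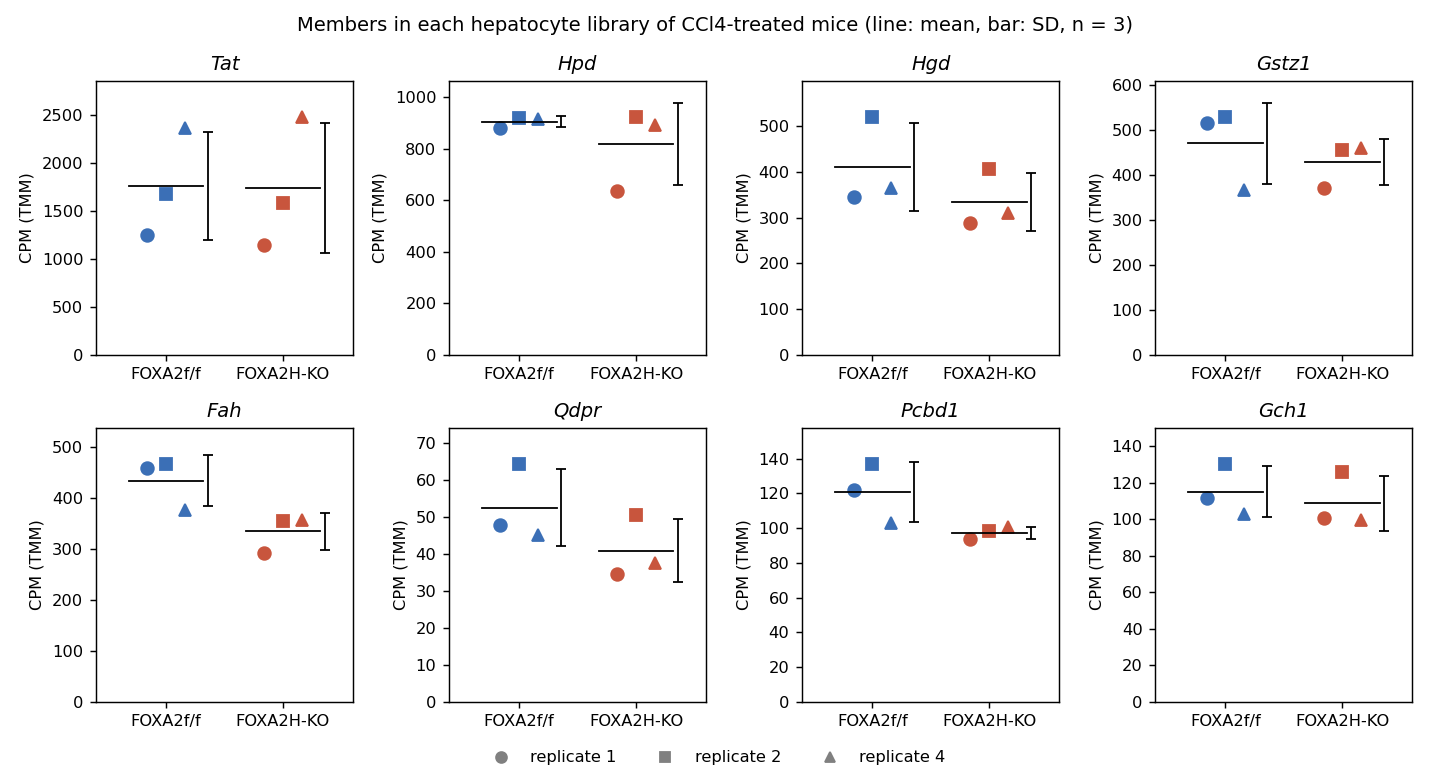
CPM (depth-scaled counts) of the 8 genes in each of the 6 libraries, with blue for FOXA2f/f and red for FOXA2H-KO, a symbol for each replicate number, a line at the mean and a bar for the SD (n = 3). The groups are apart for Fah and Pcbd1, and the widest spread within a group is that of Tat.

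Tat (ENSMUSG00000001670) lies on the plus strand of chromosome 8 from 109990437 to 109999803 in GRCm38. Its level was 1247, 1670 and 2367 CPM in FOXA2f/f replicates 1, 2 and 4 and 1146, 1585 and 2481 CPM in FOXA2H-KO replicates 1, 2 and 4. Both groups thus held a low, a middle and a high library over nearly the same range, and the means of 1761 ± 566 and 1738 ± 680 CPM (SD, n = 3) differed by far less than the libraries of either group. The fitted log2 fold change was −0.02 (SE 0.35, edgeR adjusted p = 0.999), with a 95% interval from 0.560 to 1.74 in the fold of FOXA2H-KO over FOXA2f/f. The highest Tat library exceeded the lowest by 2.16-fold, the widest range among the 8 genes, and its direction turned with the setting, from −0.36 without FOXA2H-KO replicate 4 to 0.25 without FOXA2f/f replicate 4 on the log2 scale.

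Because Tat is known as a FOXA-bound gene, the sequence just before its start was read beside that of Hpd, which holds the FOXA core found in the group. A FOXA core was searched as TGTTTAC or TATTTAC, and with G for the last A as TGTTTGC or TATTTGC, on either strand of 300 bases around each start (RefSeq, GRCm38.p6, where all 8 genes matched and Gstz1 has a pair of starts). A core was present at Hpd and at no other gene of the 8, while 13.5% of 32851 promoters hold one. CCAAT, a common promoter element chosen after these sequences had been read, was searched on both strands in the same windows, and 37.4% of all promoters hold it. It was present at Tat, Hgd, Gstz1, Qdpr and Gch1 and absent at Hpd, Fah and Pcbd1. The 250 bases before the starts of Tat (chr8:109990186-109990435, plus strand) and Hpd (chr5:123182724-123182973, minus strand) are given from 5′ to 3′ on the strand of the gene, with CCAAT or its reverse complement in capitals for Tat and the FOXA core in capitals for Hpd.
Tat: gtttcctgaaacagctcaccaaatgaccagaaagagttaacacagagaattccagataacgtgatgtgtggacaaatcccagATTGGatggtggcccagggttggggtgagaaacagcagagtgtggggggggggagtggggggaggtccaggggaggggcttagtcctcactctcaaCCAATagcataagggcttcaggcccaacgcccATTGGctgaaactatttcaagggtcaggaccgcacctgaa
Hpd: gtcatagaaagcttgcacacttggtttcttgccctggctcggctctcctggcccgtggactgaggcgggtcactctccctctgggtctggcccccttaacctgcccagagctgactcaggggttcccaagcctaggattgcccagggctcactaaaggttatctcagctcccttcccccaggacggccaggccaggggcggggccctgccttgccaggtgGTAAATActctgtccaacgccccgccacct

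The Tat window thus holds CCAAT 3 times and no FOXA core. A missing match says only that these letters are not in this window, since distant enhancers lie outside it.

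Hpd (ENSMUSG00000029445, chromosome 5, 123171807 to 123182727, minus strand), the enzyme that turns 4-hydroxyphenylpyruvate into homogentisate, was at 882, 921 and 914 CPM in FOXA2f/f replicates 1, 2 and 4. FOXA2H-KO replicates 1, 2 and 4 had 635, 924 and 892 CPM. The SD of the FOXA2f/f libraries was 2.29% of their mean, and of the FOXA2H-KO libraries only replicate 1 stood below them. The log2 fold change was −0.15 (SE 0.20, edgeR adjusted p = 0.983), with a fold between 0.654 and 1.25 (95% interval). Without FOXA2H-KO replicate 1 it was 0.0045.

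Hgd (ENSMUSG00000022821, chromosome 16, 37580153 to 37632020, plus strand), which opens the aromatic ring, was at 345, 521 and 365 CPM in FOXA2f/f and 287, 406 and 310 CPM in FOXA2H-KO replicates 1, 2 and 4. Replicate 2 was the highest library in each group, and the groups overlapped. The log2 fold change was −0.30 (SE 0.22, edgeR adjusted p = 0.983), and the fold lay between 0.569 and 1.17. It came down to −0.08 without FOXA2f/f replicate 2.

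For Gstz1 (ENSMUSG00000021033, chromosome 12, 87147165 to 87164723, plus strand), the isomerase of the fourth step, the levels were 516, 530 and 366 CPM in FOXA2f/f and 370.3, 457 and 459 CPM in FOXA2H-KO replicates 1, 2 and 4. All FOXA2H-KO values fell inside the FOXA2f/f range. The log2 fold change was −0.13 (SE 0.20, edgeR adjusted p = 0.983), with a fold from 0.661 to 1.26. It was −0.29 without FOXA2f/f replicate 4 and −0.04 without FOXA2f/f replicate 2. Of its annotated exonic bases, 12.2% overlap genes on the other strand (Pomt2 and Gm6566), and since the strand setting of the counting is not known, fragments from these bases are uncertain.

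Fah (ENSMUSG00000030630, chromosome 7, 84585159 to 84606722, minus strand), the last enzyme of the chain, was at 458, 467 and 377 CPM in FOXA2f/f replicates 1, 2 and 4 and at 293, 355 and 357 CPM in FOXA2H-KO replicates 1, 2 and 4. All FOXA2H-KO libraries were below all FOXA2f/f libraries, although the highest of them came within 5.31% of the lowest FOXA2f/f library (p = 0.1 by exact permutation, two-sided, as low as 3 against 3 can go). The means were 434 ± 49.6 and 335 ± 36.6 CPM (SD, n = 3), 22.9% apart as a share of the FOXA2f/f mean. Fah had the lowest fitted log2 fold change of the 8 genes, −0.37 with an SE of 0.17, but its unadjusted p was 0.058 and its edgeR adjusted p 0.941. The fold interval ran from 0.589 to 1.01. In the fits that each left out a library the log2 fold change stayed between −0.47 and −0.29.

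Of the cofactor genes, Gch1 (ENSMUSG00000037580, chromosome 14, 47153895 to 47189413, minus strand), which catalyses the first step of tetrahydrobiopterin synthesis, was at 112, 130.4 and 103 CPM in FOXA2f/f and 101, 126 and 99.4 CPM in FOXA2H-KO replicates 1, 2 and 4. Replicate 2 was again the highest in each group and the ranges overlapped. Gch1 had the smallest spread of the 8 genes over the 6 libraries, with a 1.31-fold range, and its log2 fold change was −0.08 (SE 0.16, edgeR adjusted p = 0.991, fold between 0.735 and 1.22).

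Pcbd1 (ENSMUSG00000020098, chromosome 10, 61089331 to 61094324, plus strand), a dehydratase of cofactor recycling, was at 122, 137 and 103 CPM in FOXA2f/f and 93.4, 98.1 and 100.4 CPM in FOXA2H-KO replicates 1, 2 and 4. The groups did not overlap, but the highest FOXA2H-KO library was within 2.53% of the lowest FOXA2f/f library (p = 0.1 by exact permutation, two-sided). The means were 121 ± 17.0 and 97.3 ± 3.56 CPM (SD, n = 3). Its log2 fold change was −0.31 (SE 0.14, unadjusted p = 0.0625, edgeR adjusted p = 0.941), with a fold from 0.641 to 1.01.

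Qdpr (ENSMUSG00000015806, chromosome 5, 45434021 to 45450236, minus strand), the reductase that regenerates tetrahydrobiopterin, was at 47.9, 64.3 and 45.1 CPM in FOXA2f/f and 34.5, 50.5 and 37.5 CPM in FOXA2H-KO replicates 1, 2 and 4. FOXA2H-KO replicate 2 lay inside the FOXA2f/f range, and the other 2 FOXA2H-KO libraries lay below it. The log2 fold change was −0.36 (SE 0.20, edgeR adjusted p = 0.957), with a fold from 0.566 to 1.07. It moved between −0.54, without FOXA2H-KO replicate 2, and −0.18, without FOXA2f/f replicate 2. Of its annotated exonic bases, 18.6% also belong to Gm42413 on the other strand, for which no counts were found. Since the strand setting of the counting is not known, fragments from these bases are uncertain.

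**Figure D2:**
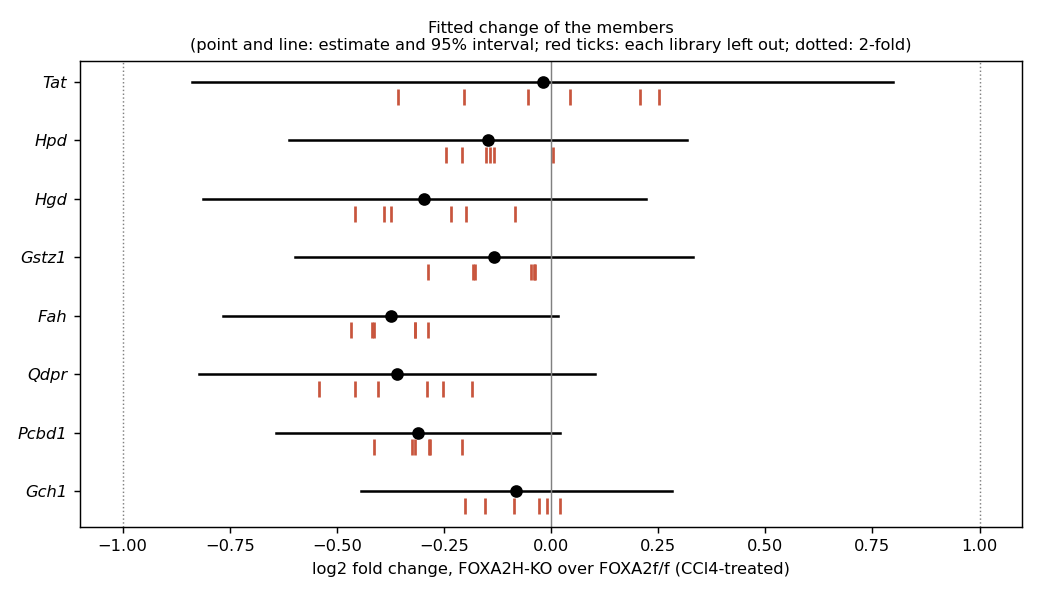
Fitted log2 fold change of FOXA2H-KO over FOXA2f/f for the 8 genes, with points for the estimates, black lines for 95% intervals, red ticks for the fits that leave out each of the 6 libraries and dotted lines at a 2-fold change. All 8 points lie left of 0, all 8 intervals cross it, and the interval of Tat is the widest, from −0.84 to 0.80.

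The direction of the small differences depended on how the libraries were scaled. With library size alone in place of TMM factors the median of all genes moved to 0.10, the median of the 8 genes was −0.11, and 5 of the 8 were below 0. Tat, Gstz1 and Gch1 then had log2 fold changes of 0.040, 0.00067 and 0.046. Fah, Pcbd1, Qdpr, Hgd and Hpd stayed below 0 under every scaling tried, and Fah and Pcbd1 remained the 2 genes without overlap when the library size alone was used.

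Per length, the 8 genes covered a wide range of levels. In the deposited FPKM, which scale each count to gene length and to the total count, Tat had a mean of 690.2 over the 6 libraries and ranked 59 among the 14417 genes tested. Hpd followed at 301 FPKM and Gstz1 at 268 FPKM, and these neighbours overlapped in range. Fah was at 154, Pcbd1 at 134 and Hgd at 127 FPKM, and each of these overlapped the next. Gch1 was at 40.2 and Qdpr between 8.08 and 12.1 FPKM, each below every library of the gene before it. The 5 enzymes of the chain thus stood above both Gch1 and Qdpr in each library.

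**Figure D3:**
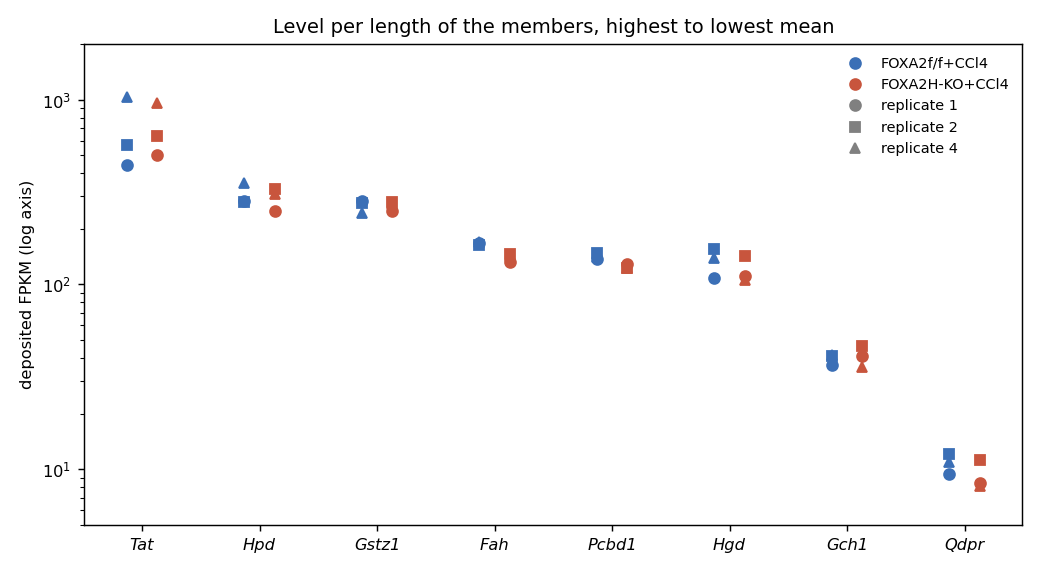
Deposited FPKM of the 8 genes on a log axis, ordered from the highest to the lowest mean, with blue for FOXA2f/f, red for FOXA2H-KO and a symbol for each replicate number. Tat lies above all others in each library, Hpd and Gstz1 overlap, Fah, Pcbd1 and Hgd form a second level, and Gch1 and Qdpr lie below.

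These levels rest on the gene lengths behind the FPKM. The length implied for Qdpr was 4607 bases, while its exons in GENCODE M21 join to 1788 bases, and for Gch1 the lengths were 2775 and 6251 bases. With the M21 lengths, chosen as an alternative after seeing the data, Qdpr would be at 25.8 and Gch1 at 17.9 FPKM, and Gstz1 would move from the third to the sixth place at 87.6 FPKM, whereas Tat and Hpd would keep the top 2 places. Comparisons of a gene between libraries do not depend on its length.

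The genes differed in how they varied from library to library. FOXA2H-KO replicate 1 was the lowest of the 6 libraries in 6 of the 8 genes, against 15.4% of all genes tested, and FOXA2f/f replicate 2 was the highest in 6 of the 8, against 29.7% of all genes. The most similar pair of patterns was Hgd and Qdpr, whose log2 CPM, each centred on its own mean, differed by a root mean square of 0.068 over the 6 libraries. Fah and Pcbd1 came next with 0.085. Tat stood apart from the rest, with its nearest partner Hpd at 0.34 and the other 6 between 0.46 and 0.51.

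Among 8294 other genes with a mean of at least 10 CPM, the pattern most like that of Tat was that of Ppargc1a, a coactivator gene induced in liver by fasting and glucagon, with a root mean square difference of 0.072 where Tat itself had an SD of 0.46 on the log2 scale. Ppargc1a was at 16.1, 20.0 and 28.4 CPM in FOXA2f/f and 15.2, 21.5 and 33.1 CPM in FOXA2H-KO replicates 1, 2 and 4. As for Tat, replicate 1 was low and replicate 4 high in each group, and the groups overlapped. Tbc1d8, a gene of the TBC domain family, was second with 0.11. The closest genes were Rpl41 and Rplp2 for Hpd, Eefsec and Hsd3b3 for Hgd, Ccdc43 and Acp1 for Gstz1, and Dpyd and Rack1 for Fah. For the cofactor genes they were Gpt and Ndufs7 for Qdpr, Hras and Lonp1 for Pcbd1, and Ctso and Bri3 for Gch1. Root mean square differences of these 14 genes lay between 0.027 and 0.060. These names are a description over 6 libraries, with no test.

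**Figure D4:**
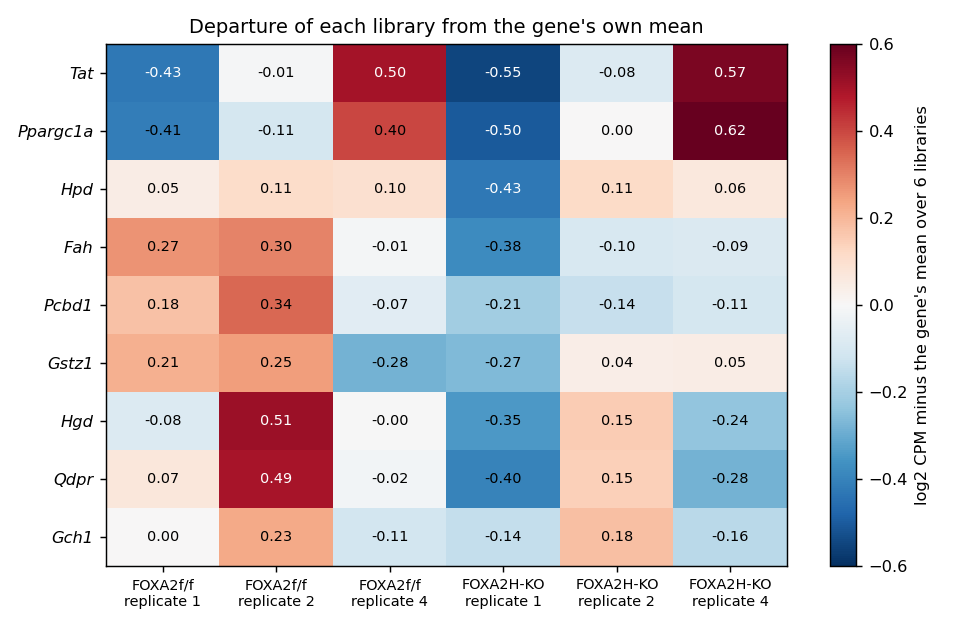
Log2 CPM (prior count 2) of the 8 genes and Ppargc1a in each library after subtraction of the gene's mean over the 6 libraries, with red above and blue below the mean. Tat and Ppargc1a are low in both libraries numbered 1 and high in both numbered 4, while the other genes are mostly lowest in FOXA2H-KO replicate 1 and highest in FOXA2f/f replicate 2.

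The preparations differed in the RNA of other liver cells. In FOXA2f/f the summed level of 7 endothelial genes ran from 194 to 663 CPM, that of 7 macrophage genes from 474 to 2315 CPM and that of 8 stellate cell and fibroblast genes from 722 to 2022 CPM, each lowest in replicate 2 and highest in replicate 4. In FOXA2H-KO the same sums ran from 326 to 413, 1036 to 1722 and 1234 to 1897 CPM. All 22 of these genes were tested and 0 were called, with 7 lower and 15 higher in FOXA2H-KO. The endothelial genes were mostly lower, 5 against 2 higher. Of the macrophage genes 1 was lower and 6 higher, and of the stellate cell and fibroblast genes 1 was lower and 7 higher. For 5 cholangiocyte genes the sums were 174 to 367 CPM in FOXA2f/f and 252 to 707 CPM in FOXA2H-KO, highest in replicate 1, and all 5 were higher in FOXA2H-KO without a call, with a median log2 fold change of 0.91. Spp1, at means of 246 and 500 CPM in FOXA2f/f and FOXA2H-KO, made up most of these sums. Krt7 and Spp1 had an unadjusted p under 0.05, against 5.17% of all genes. Krt19 and Krt7 did not overlap between groups, against 10.5% of all genes. Both were rare, at means of 1.18 and 2.23 CPM for Krt19 and 0.958 and 1.97 CPM for Krt7. The 5 neutrophil genes summed to between 8.28 and 64.9 CPM in FOXA2f/f and between 18.4 and 28.7 CPM in FOXA2H-KO, 4 of them lower and 1 higher without a call, although 2 had an unadjusted p under 0.05. The 6 lymphocyte genes stayed at or under 4.58 CPM, only 3 of them had enough counts to be tested, 1 lower and 2 higher without a call, and Cd3e and Trbc2 were each at 0 in 1 library. Of the 8 hepatocyte genes 7 were lower and 1 higher in FOXA2H-KO without a call. Their sum had the opposite pattern in FOXA2f/f, 174354 CPM in replicate 2 and 123005 CPM in replicate 4. In FOXA2H-KO their sum was lowest in replicate 1, the library with the lowest level of 6 of the 8 breakdown genes. Most of this sum was Alb, at means of 109009 and 100115 CPM in FOXA2f/f and FOXA2H-KO. Within FOXA2H-KO, Alb, Apoa1, Cps1, Fgb and Ahsg were lowest in replicate 1. Ttr and Apob were highest there, and Hnf4a was lowest in replicate 2. The part of these differences in the values of the 8 genes was not tested.

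Each gene was therefore also read against the hepatocyte markers of its own library, as its count divided by the geometric mean of the 8 marker counts, a setting added after seeing the data. Fah had 62.5, 59.0 and 68.3 counts per 1000 marker counts in FOXA2f/f and 49.1, 57.3 and 50.8 in FOXA2H-KO replicates 1, 2 and 4. Pcbd1 had 16.6, 17.3 and 18.7 against 15.7, 15.8 and 14.3. Fah and Pcbd1 remained without overlap on this scale, where any gene without overlap has p = 0.1 by exact permutation (two-sided). The 8 markers themselves were mostly lower in FOXA2H-KO, 7 lower and 1 higher with a median log2 fold change of −0.12. The log2 ratio of the means was −0.27 for Fah and −0.20 for Pcbd1. The ratio was −0.02 for Gstz1, −0.02 for Tat and 0.03 for Gch1 and −0.07, −0.18 and −0.24 for Hpd, Hgd and Qdpr. In each of these 6 genes the groups overlapped. Over all 8 breakdown genes the median on this scale was −0.13, with 7 below 0 and 1 above.

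Related genes were read from lists of the same pathways and of factors known at Tat. Among the 6 other genes of tetrahydrobiopterin metabolism 0 were called, 4 were lower and 2 higher in FOXA2H-KO, with a median log2 fold change of −0.12. Dnajc12, a co-chaperone of the aromatic amino acid hydroxylases, had the lowest value, −1.21 (15.1 ± 12.7 against 6.55 ± 0.407 CPM, SD, n = 3), and its FOXA2f/f mean rested on 29.7 CPM in replicate 1 beside 6.58 and 9.09 CPM in replicates 2 and 4. Pcbd2, the paralog of Pcbd1, had the highest, 0.15, at means of 1.14 and 1.27 CPM. A list of 16 other genes held enzymes that act on aromatic amino acids, their keto acids or their amines, and also Fahd1 and Fahd2a. Of these 16 genes, 15 were tested and 0 were called, with 12 lower, 3 higher and a median of −0.14. The highest value was that of Sult1a1, a phenol sulfotransferase, at 0.56 (204 ± 86.1 against 301 ± 89.4 CPM, SD, n = 3). The 6 transporter genes for aromatic amino acids had 0 calls, 2 lower and 4 higher with a median of 0.18, from −0.60 for Slc7a5 to 0.56 for Slc16a10, which encodes a transporter selective for aromatic amino acids. Slc7a5 was the 1 gene of these 3 lists whose groups did not overlap, at 4.14 ± 0.906 against 2.74 ± 0.593 CPM (SD, n = 3).

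Of 9 genes for transcription factors that act at Tat, Foxa2 alone was called, 4 had a log2 fold change below 0 and 5 above, and the median was 0.10. Foxa1 was at 16.6 ± 3.83 and 18.2 ± 1.43 CPM, and Foxa3 at 40.4 ± 7.40 and 43.2 ± 8.39 CPM (SD, n = 3, FOXA2f/f first). Nr3c1, the glucocorticoid receptor gene, had a log2 fold change of 0.10 (SE 0.13). The highest log2 fold change of the list was 0.35, for Cebpb. The paralogs Foxa1 and Foxa3 had edgeR adjusted p-values of 0.983 and 0.991.

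In a list of 14 genes induced in hepatocytes by glucocorticoids or fasting 0 were called and 3 were lower and 11 higher, with a median of 0.23 beside −0.02 for Tat. The values ran from −1.20 for G6pc, the catalytic subunit of glucose-6-phosphatase, to 1.13 for Fkbp5, a glucocorticoid-induced co-chaperone. G6pc was at 618 ± 412 against 268 ± 94.1 CPM (SD, n = 3), and its FOXA2f/f mean rested on a high replicate 2. Tdo2, Fkbp5 and G6pc, 3 of the 14, had an unadjusted p under 0.05, against 5.17% of all genes. FOXA2H-KO replicate 4, the library with the highest Tat level, was also the highest of the 6 libraries in 11 of these 14 genes, against 13.1% of all genes tested. Tdo2, the tryptophan dioxygenase gene often studied with Tat, was the 1 gene of the list without overlap, at 1300 ± 68.5 and 2173 ± 248 CPM (SD, n = 3, log2 fold change 0.74, edgeR adjusted p = 0.65). Of 8 genes of the interferon and cytokine response, which can induce Gch1, 6 were tested, 0 were called, 2 were lower and 4 higher with a median of 0.08, and their log2 fold changes lay between −0.31 for Cxcl10 and 0.26 for Cxcl9.

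**Figure D5:**
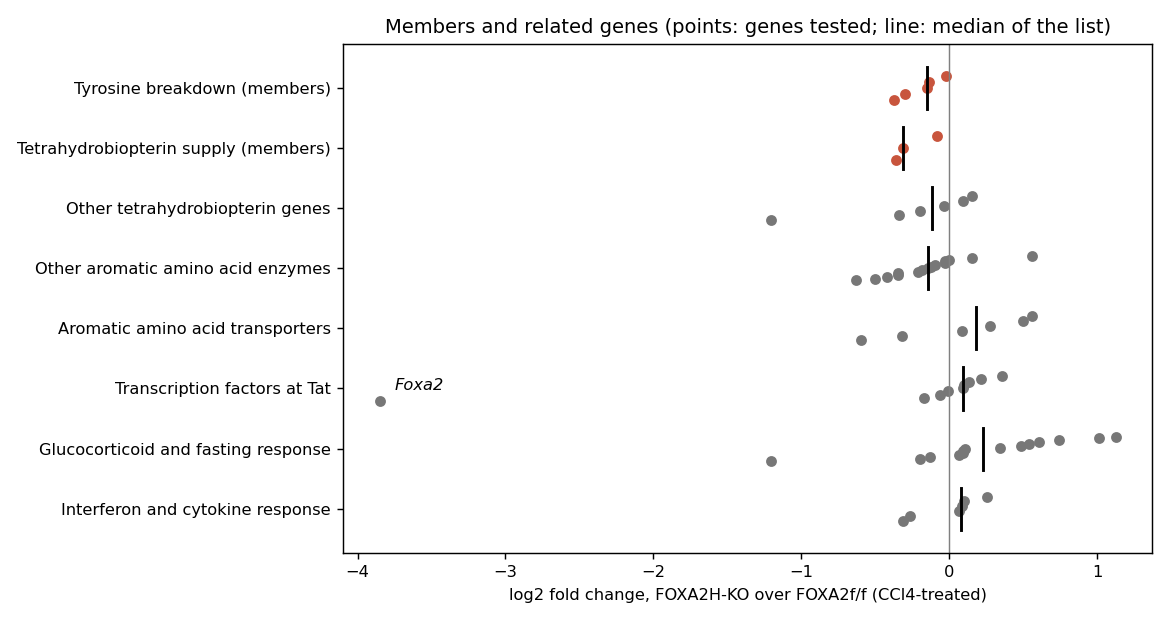
Fitted log2 fold changes of FOXA2H-KO over FOXA2f/f for the 8 genes (red points) and for the related lists (grey points), with a line at each list's median. Apart from Foxa2 at −3.85 the points lie between −1.21 and 1.13, and no other gene shown was called.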

How the data were processed

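RNA-seq was done on 6 paired-end libraries (TruSeq RNA kit) of primary hepatocytes, isolated by collagenase perfusion and low-speed centrifugation and numbered 1, 2 and 4 in each group. For each library the authors deposited raw counts per Ensembl gene and FPKM values, which follow from the counts and the total count (largest relative spread of the implied length 1.6e-05 over 10676 genes). The submitters' processing notes name CASAVA 1.8, TopHat2 2.1.0, HTSeq, edgeR and mm10. The annotation is not given in the sources used here. GENCODE M21 (GRCm38) gave positions, and 34267 genes matched a symbol.

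The deposited counts went into edgeR 4.0.16 under R 4.3.3 (TMM, filterByExpr, quasi-likelihood test without pairing, Benjamini-Hochberg adjustment over 14417 genes, tested on simulated data). CPM values use TMM-adjusted library sizes. A standard error is the absolute log2 fold change over the square root of F. Genes were called at an adjusted p under 0.05 and a fold change of at least 2. The labels do not say that each library came from its own mouse, so p-values measure the spread between libraries, which may be technical. Single values had exact two-sided permutation tests. Alternatives included DESeq2 1.42.0, limma 3.58.1 on voom weights and on log2(FPKM + 1), other scalings, filters, a replicate block and each library left out. Samples with the same number are not known to be related. Over all genes tested, the correlations of their deviations were r = −0.07, 0.03 and −0.23 for numbers 1, 2 and 4. Named genes are the 8 members, the extremes of each related list with a mean CPM of 1 or more and the 2 genes of most similar pattern, with others chosen after their values were seen. Some genes that this rule names are not reported here. The members and lists were chosen with earlier results of these data known.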

Additional observations from a re-analysis of the deposited data

How the results depend on the processing

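None of the 8 genes was called under any alternative tried. The smallest adjusted p of each gene over the alternatives with a test lay between 0.23 for Pcbd1, without FOXA2f/f replicate 4, and 0.774 for Hpd in the same fit. The count of called genes over the whole table was 1 and became 70 with DESeq2, 64 with edgeR's exact test, 4 with limma-voom and library quality weights, 2 with no filter beyond 1 count, 254 with unadjusted p-values at the 2-fold threshold, and 0 with library size alone or with limma on log2(FPKM + 1) or log2(FPKM + 0.1), where 723, 648 and 642 genes had an unadjusted p under 0.05. That number was 745 as reported, 2152 with limma-voom and 2424 without FOXA2f/f replicate 4. Of the 8 genes, Fah alone had an unadjusted p under 0.05 with DESeq2 (5.67% of all genes), log2(FPKM + 1) (6.3%) and log2(FPKM + 0.1) (6.25%). Qdpr alone had one with the block (4.73% of all genes) and without FOXA2H-KO replicate 2 (4.22%). The count of called genes over the whole table lay between 0 and 6 when each library was left out, with 6 without FOXA2f/f replicate 2. With the replicate number as a block, which pairs the libraries by number, 0 genes were called (682 with an unadjusted p under 0.05), and the log2 fold changes were −0.37 for Fah and −0.30 for Pcbd1. The block changed no call among the 8 genes.

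The sign turned for 4 of the 8 genes. Tat was at 0.040 with library size alone, 0.35 with limma-voom, 0.080 with each FPKM setting, and between −0.36 and 0.25 with a library left out. Gstz1 was at 0.00067 with library size alone and at 0.0018 with each FPKM setting. Gch1 was at 0.046 with library size alone, 0.039 with log2(FPKM + 1), 0.040 with log2(FPKM + 0.1), 0.029 per hepatocyte marker, and between −0.20 and 0.020 with a library left out. Hpd lay between −0.25 and 0.0045 with a library left out. The number of the 8 genes without overlap between groups was 2, and between 2 and 5 with a library left out, 5 without FOXA2H-KO replicate 2 and 3 without FOXA2f/f replicate 4. Among all genes 18.6% and 36.4% were without overlap in these comparisons of 3 against 2 libraries, beside 10.5% with all 6. The cause of these shifts was not tested. Depth was no tight limit for the 8 genes, as the rarest had at least 811 counts in each library, whereas 3 libraries per group limit the precision of every fold change.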
